A study of Mus musculus with 6 samples.

Results

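A total of 10 genes were described that lie on both sides of Hgf on mouse chromosome 5, the gene altered in this model of the recessive deafness DFNB39. They were chosen by name for their place near Hgf and not by measured values, though earlier results of these data were known. They are Cacna2d1, Pclo, Sema3e, Sema3a and Sema3d upstream of Hgf, and Sema3c, Cd36, Gnat3, Gnai1 and Magi2 downstream of it. All 10 had a row among the 48709 mouse genes of the count table, and 9 of the 10 passed the filter on low counts that left 20733 genes for testing. Gnat3 did not pass. RNA was sequenced from whole cochleae, the hearing organ of the inner ear, of 3 mice homozygous for an engineered Hgf allele (genotype Hgfdel10Neo/del10Neo, knock-in or KI) and of 3 wild-type littermates (genotype Hgf+/+, WT). The allele lacks 10 bp of intron 5 of Hgf, and its name also carries Neo, a drug selection cassette used to build such alleles. Nothing in the groups other than this allele is stated to differ. The mice were aged between 5 and 27 weeks, with no age given for a single mouse, and their strain is not given in the sources used here. Each library mixes the RNA of all cells in the tissue.

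Class 3 semaphorins are secreted proteins that guide growing axons and vessels. They bind neuropilins, with plexins as the signalling partners, and Sema3e can bind plexin D1 (Plxnd1) directly. The genes of 4 family members lie near Hgf. Cacna2d1 encodes an auxiliary alpha2delta subunit of voltage-gated calcium channels, Pclo the presynaptic scaffold piccolo, whose short form is found at the ribbon synapses of hair cells, and Magi2 a scaffold of synapses and cell junctions. Gnai1 encodes an inhibitory G alpha subunit, a family known in the ear for shaping the hair bundle, and Gnat3 the G alpha subunit gustducin of taste cells. Cd36 encodes a membrane protein that takes up fatty acids in fat, muscle, macrophages and capillary endothelium.

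The start sites of these genes were not of 1 kind. RefSeq (build GRCm38.p6) gave 300-base promoters for Hgf and all 10 genes, and 2 of them each for Hgf and Magi2. Each ran from 250 bases before the start to 50 after. Those of Sema3a (13396534 to 13396833) and Cd36 lie inside the GENCODE gene bodies, far from the starts annotated there. Those starts are 13125414 for Sema3a and, on the reverse strand, 17888801 for Cd36, and the sequence at them was not examined. The promoters of Hgf, Cacna2d1 (the nearest of the set), Gnai1, Cd36 and Gnat3 are shown. Hgf stands for the altered gene, and Cacna2d1 and Gnai1 for neighbours with small measured differences between the groups. Cd36 stands for the neighbour with the widest spread and Gnat3 for the one with few reads. Capitals mark CG dinucleotides.
Hgf, chr5:16553245-16553544, forward strand: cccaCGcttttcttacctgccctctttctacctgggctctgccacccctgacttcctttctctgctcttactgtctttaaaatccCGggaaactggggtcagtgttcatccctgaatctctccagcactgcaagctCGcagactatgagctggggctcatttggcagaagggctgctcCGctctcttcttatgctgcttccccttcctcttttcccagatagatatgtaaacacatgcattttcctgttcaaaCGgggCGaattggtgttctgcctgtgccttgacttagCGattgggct
Cacna2d1, chr5:15934441-15934740, forward strand: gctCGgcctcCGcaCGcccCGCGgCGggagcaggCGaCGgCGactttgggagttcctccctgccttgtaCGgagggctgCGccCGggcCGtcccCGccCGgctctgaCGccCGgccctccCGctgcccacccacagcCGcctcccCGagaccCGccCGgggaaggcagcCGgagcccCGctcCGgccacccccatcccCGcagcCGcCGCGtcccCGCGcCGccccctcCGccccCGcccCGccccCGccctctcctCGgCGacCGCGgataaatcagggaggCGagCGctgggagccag
Gnai1, chr5:18360364-18360663, reverse strand: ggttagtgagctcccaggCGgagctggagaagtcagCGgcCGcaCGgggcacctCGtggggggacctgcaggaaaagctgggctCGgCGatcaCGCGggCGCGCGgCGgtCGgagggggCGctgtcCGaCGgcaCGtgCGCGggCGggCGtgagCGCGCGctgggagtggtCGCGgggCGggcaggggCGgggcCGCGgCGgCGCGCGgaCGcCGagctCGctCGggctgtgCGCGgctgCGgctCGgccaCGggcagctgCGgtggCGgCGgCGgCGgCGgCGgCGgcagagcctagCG
Cd36, chr5:17835847-17836146, reverse strand: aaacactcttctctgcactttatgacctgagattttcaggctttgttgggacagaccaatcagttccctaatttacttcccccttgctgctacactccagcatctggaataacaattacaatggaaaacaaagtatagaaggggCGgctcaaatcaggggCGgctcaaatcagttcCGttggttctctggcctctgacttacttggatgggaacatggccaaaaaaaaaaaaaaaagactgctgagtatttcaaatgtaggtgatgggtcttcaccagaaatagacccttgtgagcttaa
Gnat3, chr5:17962320-17962619, forward strand: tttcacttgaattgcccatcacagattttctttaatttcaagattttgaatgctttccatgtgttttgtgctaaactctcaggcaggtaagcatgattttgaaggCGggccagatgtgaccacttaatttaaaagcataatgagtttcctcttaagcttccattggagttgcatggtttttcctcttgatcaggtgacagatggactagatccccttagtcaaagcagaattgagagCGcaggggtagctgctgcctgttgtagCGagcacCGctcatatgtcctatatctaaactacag

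The Gnai1 promoter held 53 CG dinucleotides and the Cacna2d1 promoter 42, against a median of 7 over 32851 promoters. The Cd36 promoter held 3, the Gnat3 promoter 4 and the Hgf promoter shown 7. Of the others, Sema3c (42), Pclo (35) and the first Magi2 start (29) were rich in CG, and Sema3e (11), Sema3d (8), the second Magi2 start (4) and Sema3a (2) were not. The letters TATAAA, searched on both strands, were in none of the 13 windows of Hgf and these genes and in 13.6% of all promoters. CCAAT, on both strands, was in the promoters of Cd36, Gnat3, Sema3d and the first start of Hgf, and in 37.4% of all. GGGCGG, which itself holds a CG, was on either strand in those of Cacna2d1, Gnai1, Sema3c, Sema3e, Pclo, Cd36 and the second Magi2 start, and in 35.7% of all. These matches are descriptions of the letters.

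KI libraries held 34437746, 28451570 and 24005234 counts in mouse genes, and WT libraries 24144106, 29041493 and 42312291. Nothing in the labels says which of these 6 mice shared a litter. The p-values set the difference between groups against the spread among mice within groups, estimated with information shared over genes. All 9 hair cell markers had counts, with summed levels of 237 to 253 CPM (a gene's count relative to the library's scaled total) in KI and 222 to 259 CPM in WT libraries. The Neo cassette, which the KI label names, had 71, 199 and 5 counts in the KI libraries and 5, 8 and 10 counts in the WT libraries. The library labelled KI replicate 3 was therefore at the WT level of Neo, and values without it are given beside the results that rest on it most. Xist, which coats an X chromosome in female cells, was abundant in KI replicate 3 (758 CPM) and WT replicate 2 (854 CPM) and at most 0.906 CPM in the other 4 libraries.

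Hgf was at a lower level in every KI library than in any WT library, and none of its tested neighbours was separated in this way. Hgf (ENSMUSG00000028864), on chromosome 5 from 16553495 to 16620152 (GRCm38), was at 9.24, 10.4 and 10.5 CPM in KI and at 15.4, 16.3 and 15.2 CPM in WT libraries. The groups did not overlap. Its log2 fold change was -0.63 (SE 0.111, 95% interval -0.88 to -0.38), which did not pass the threshold of 0.05 in edgeR's quasi-likelihood test after Benjamini-Hochberg adjustment over all genes tested (adjusted p = 0.246). Without KI replicate 3 it was -0.67 (edgeR adjusted p = 0.535). In the authors' deposited table it was -0.64 with an adjusted p of 0.0149, and in DESeq2 fitted to the same counts it was -0.64 with an adjusted p of 0.014.

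None of the 9 tested neighbours passed the edgeR threshold, beside 0.0338% of all genes tested (7 genes; 0.00965% higher and 0.0241% lower in KI). At an unadjusted p under 0.05, 1 of the 9, Cd36, was higher in KI and none lower, beside 4.5% of all genes tested (2.54% higher and 1.96% lower in KI). None passed in limma-voom (0.0386% of genes), in DESeq2 (0.0926%), in edgeR with no filter on low counts (0.223%) or in the authors' deposited table (0.181%). The DESeq2 and unfiltered fits also gave Gnat3 an adjusted p. KI and WT libraries overlapped for each of the 9, where 8.72% of all genes tested had groups that did not overlap (4.71% with KI higher and 4.01% with KI lower). Of the 9 log2 fold changes, 6 were positive and 3 negative, and their median was 0.02 beside 0.00082 for all genes tested. Their median absolute log2 fold change was 0.128 beside 0.12 for all genes tested.

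**Figure D1:**
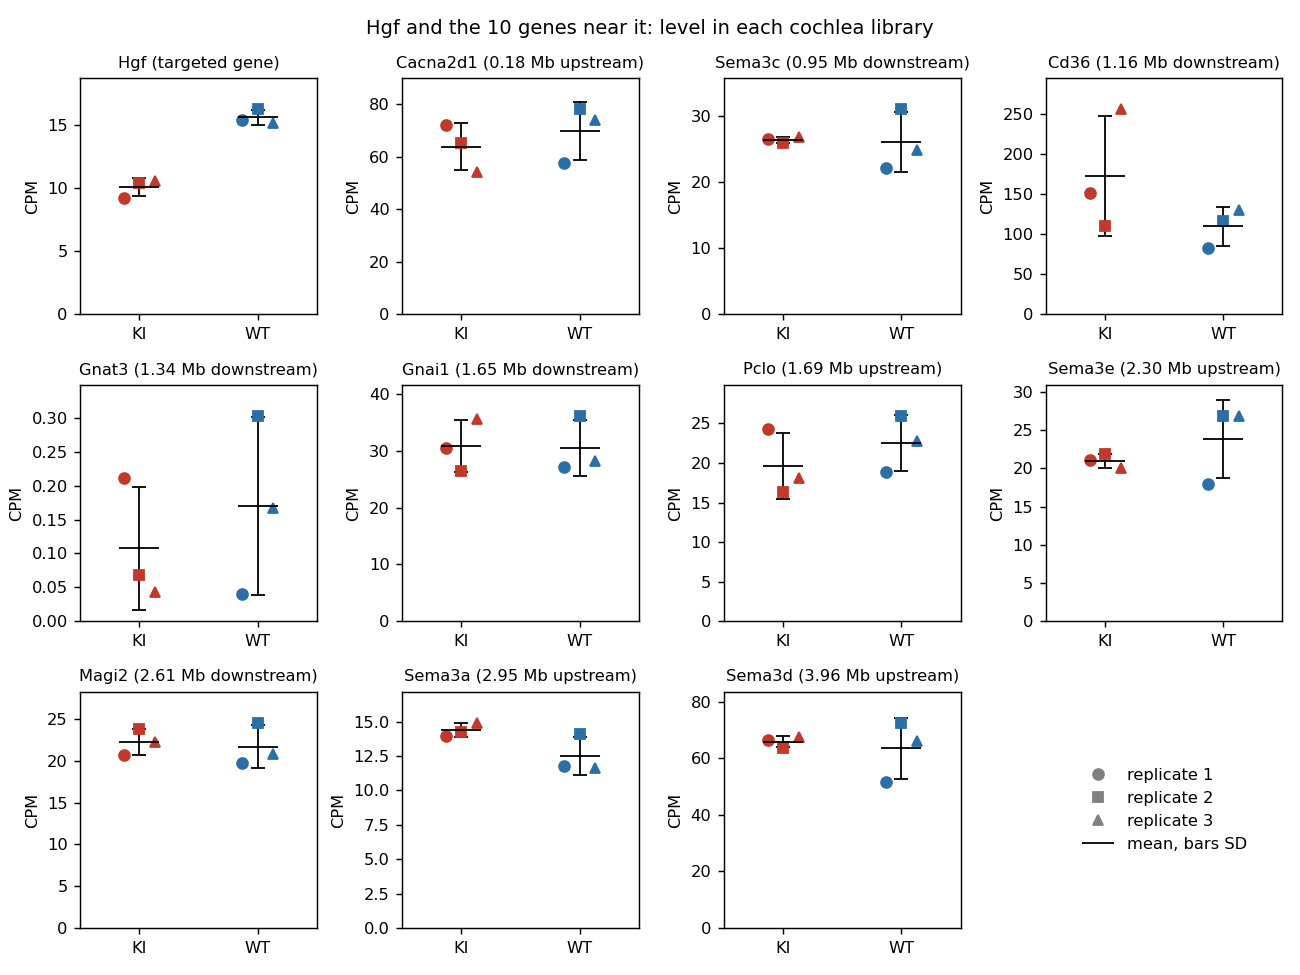
Level of Hgf and the 10 genes near it in each library, in CPM from 0 upward, with KI left of WT in every panel; symbols mark the replicates, the horizontal bar the group mean and the error bars the SD of 3 libraries. Only the Hgf panel has groups that do not overlap, and Cd36 has 1 KI library, replicate 3, at 256 CPM.

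With all 6 libraries, no interval of a tested neighbour reached the log2 fold change of Hgf. The 95% intervals of all 9 lay above the log2 fold change of Hgf (-0.63), as did those of 79.8% of all genes tested. For 6 of the 9 (Sema3c, Sema3a, Sema3d, Gnai1, Magi2 and Cd36) the interval also lay above the whole interval of Hgf, as for 54.6% of all genes tested. The intervals of Cacna2d1 (lower bound -0.45), Sema3e (-0.54) and Pclo (-0.58) overlapped that of Hgf. Without KI replicate 1, the number of intervals above the change of Hgf in the same fit was 7 of 9. It was 8 of 9 without WT replicate 1 and without WT replicate 3, and 9 of 9 without KI replicate 2, KI replicate 3 or WT replicate 2.

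None of the 4 semaphorin genes passed, and with all 6 libraries the 95% interval of each reached both sides of no change. All positions below are on chromosome 5 of GRCm38. Sema3c (ENSMUSG00000028780), which lies 0.954 Mb downstream of Hgf from 17574281 to 17730268 and is known for guiding neural crest cells in the heart, was at 26.5, 26.0 and 26.8 CPM in KI and at 22.2, 31.1 and 25.0 CPM in WT libraries. The KI libraries lay inside the WT range, and the log2 fold change was 0.02 (SE 0.131, 95% interval -0.27 to 0.31). Sema3d (ENSMUSG00000040254), the farthest of the set at 3.96 Mb upstream (12383385 to 12588948), was at 66.6, 63.6 and 67.5 CPM in KI and at 51.6, 72.6 and 66.3 CPM in WT libraries. WT replicate 1 was the lowest of its 6 libraries, and the log2 fold change was 0.05 (SE 0.127, 95% interval -0.23 to 0.34).

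Sema3a (ENSMUSG00000028883), a repellent of sensory axons, lies 2.95 Mb upstream (13125414 to 13602565). It was at 14.0, 14.3 and 14.9 CPM in KI and at 11.8, 14.1 and 11.6 CPM in WT libraries. The lowest KI library was just under the highest WT library. The log2 fold change of 0.2 (SE 0.117, 95% interval -0.058 to 0.467) did not pass (edgeR adjusted p = 0.966). Without WT replicate 2 it was 0.3 (95% interval 0.02 to 0.58, edgeR adjusted p = 0.82). Sema3e (ENSMUSG00000063531), which acts on vessels through plexin D1, lies 2.3 Mb upstream (14025276 to 14256689) and was at 21.1, 21.8 and 20.02 CPM in KI and at 17.9, 26.8 and 26.8 CPM in WT libraries. WT replicates 2 and 3 were above every KI library and WT replicate 1 was below them all, and the log2 fold change was -0.19 (SE 0.155, 95% interval -0.54 to 0.16). Without WT replicate 1 it was -0.35 (95% interval -0.61 to -0.09, edgeR adjusted p = 0.999).

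Cacna2d1 (ENSMUSG00000040118) is the nearest of the set, its end 179 kb before the start of Hgf (15934691 to 16374511). It was at 72.2, 65.2 and 54.4 CPM in KI and at 57.6, 78.2 and 73.9 CPM in WT libraries. Both groups held high and low libraries, and the log2 fold change was -0.13 (SE 0.142, 95% interval -0.45 to 0.19). Without KI replicate 3 it was -0.03. Pclo (ENSMUSG00000061601), 1.69 Mb upstream (14514918 to 14863459), was at 24.3, 16.4 and 18.1 CPM in KI and at 18.9, 25.9 and 22.8 CPM in WT libraries. KI replicate 1 stood above the other KI libraries, and the log2 fold change was -0.2 (SE 0.17, 95% interval -0.58 to 0.18). Without KI replicate 1 it was -0.39 (95% interval -0.74 to -0.03, edgeR adjusted p = 0.53). Magi2 (ENSMUSG00000040003), which spans 19227036 to 20704792 and starts 2.61 Mb downstream, was at 20.8, 23.8 and 22.2 CPM in KI and at 19.7, 24.6 and 20.9 CPM in WT libraries. The KI range lay inside the WT range, and the log2 fold change was 0.04 (SE 0.118, 95% interval -0.23 to 0.3).

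Gnai1 (ENSMUSG00000057614), 1.65 Mb downstream on the reverse strand (18265135 to 18360355), was at 30.5, 26.4 and 35.5 CPM in KI and at 27.1, 36.1 and 28.1 CPM in WT libraries. Each group had 1 library above the rest, and the log2 fold change was 0.02 (SE 0.149, 95% interval -0.32 to 0.35). Gnat3 (ENSMUSG00000028777), 1.34 Mb downstream (17962549 to 18019834), was barely present, with 7, 2 and 1 counts in KI and 1, 9 and 7 counts in WT libraries. Summed, these are 10 counts in KI and 17 counts in WT, a ratio of KI to WT of 0.646 with an exact 95% counting interval of 0.265 to 1.5, which covers counting error only. The interval spans ratios on both sides of no change, so these few counts do not show whether Gnat3 differed.

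Cd36 had the largest difference of the set. It (ENSMUSG00000002944) lies 1.16 Mb downstream of Hgf on the reverse strand (17781690 to 17888801) and was at 151, 110.4 and 256 CPM in KI and at 82.3, 116 and 131 CPM in WT libraries. KI replicates 1 and 3 were above every WT library, and KI replicate 2 lay between WT replicates 1 and 2. The groups averaged 172 ± 75.0 CPM in KI and 109.6 ± 24.7 CPM in WT (SD, n = 3 each). The log2 fold change was 0.65 (SE 0.279, 95% interval 0.02 to 1.28) and did not pass (edgeR unadjusted p = 0.0431, adjusted p = 0.966). It was 0.25 without KI replicate 3 (95% interval -0.2 to 0.7) and 0.89 without KI replicate 2 (95% interval 0.33 to 1.44, edgeR adjusted p = 0.822). With Xist as a covariate it was 0.57 (edgeR adjusted p = 0.748).

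Genes of fat cells differed between the libraries in an order partly like that of Cd36. All 12 adipocyte markers were tested. Their summed level was 564, 313 and 1451 CPM in KI and 179, 316 and 282 CPM in WT libraries. KI replicate 3 was highest, KI replicate 1 next and WT replicate 1 lowest for this sum, as for Cd36. The order of the others was not the same. WT replicate 3 was above WT replicate 2 and KI replicate 2 for Cd36 and below both for the sum. All 12 log2 fold changes were positive, and their median was 1.42 beside 0.00082 for all genes tested, and none passed over all genes tested. All 12 had an edgeR unadjusted p under 0.05, beside 4.5% of all genes tested, in a list chosen with earlier results of these data known. Without KI replicate 3 all 12 were still positive and their median was 0.68, again with none passing. In that fit 8 of the 12 had an edgeR unadjusted p under 0.05. Cidec, a lipid droplet protein gene, was at 36.0, 19.9 and 97.4 CPM in KI and at 7.32, 14.5 and 14.0 CPM in WT libraries (log2 fold change 2.08, edgeR adjusted p = 0.966). Without KI replicate 3 its log2 fold change was 1.21 (95% interval 0.53 to 1.9). Pparg, the nuclear receptor of fat cell formation, was at 20.8, 14.3 and 26.7 CPM in KI and at 12.6, 10.6 and 13.6 CPM in WT libraries (log2 fold change 0.74, edgeR adjusted p = 0.966; 0.51 without KI replicate 3). The part of fat tissue in the Cd36 difference was not tested, and in bulk samples a change in the number of cells of a type and a change in RNA per cell cannot be told apart.

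Genes that work with Cd36 in fatty acid uptake numbered 9, of which 7 had positive and 2 negative log2 fold changes (median 0.32), and none passed. Without KI replicate 3, 6 were positive and 3 negative, with a median of 0.05. Fabp4, a carrier of fatty acids inside the cell, was at 195, 72.0 and 409 CPM in KI and at 44.0, 91.2 and 97.7 CPM in WT libraries (log2 fold change 1.53, SE 0.521; 0.77, SE 0.403, without KI replicate 3). Lpl, the lipase that frees fatty acids at the vessel wall, was at 194, 108 and 247 CPM in KI and at 91.3, 148 and 109.5 CPM in WT libraries (log2 fold change 0.66, SE 0.273; 0.38, SE 0.252, without KI replicate 3). Endothelial markers, another source of Cd36, summed to 341, 366 and 425 CPM in KI and to 391, 411 and 360.2 CPM in WT libraries, and the median of their 8 log2 fold changes was -0.08. Skeletal muscle markers summed to 3984, 2597 and 2380 CPM in KI and to 3359, 4926 and 3188 CPM in WT libraries, with a median of -0.27 over 6 (Myh4 at -0.58 and Mylpf at -0.3), and macrophage markers had a median of -0.18 over 6. None of these passed.

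**Figure D2:**
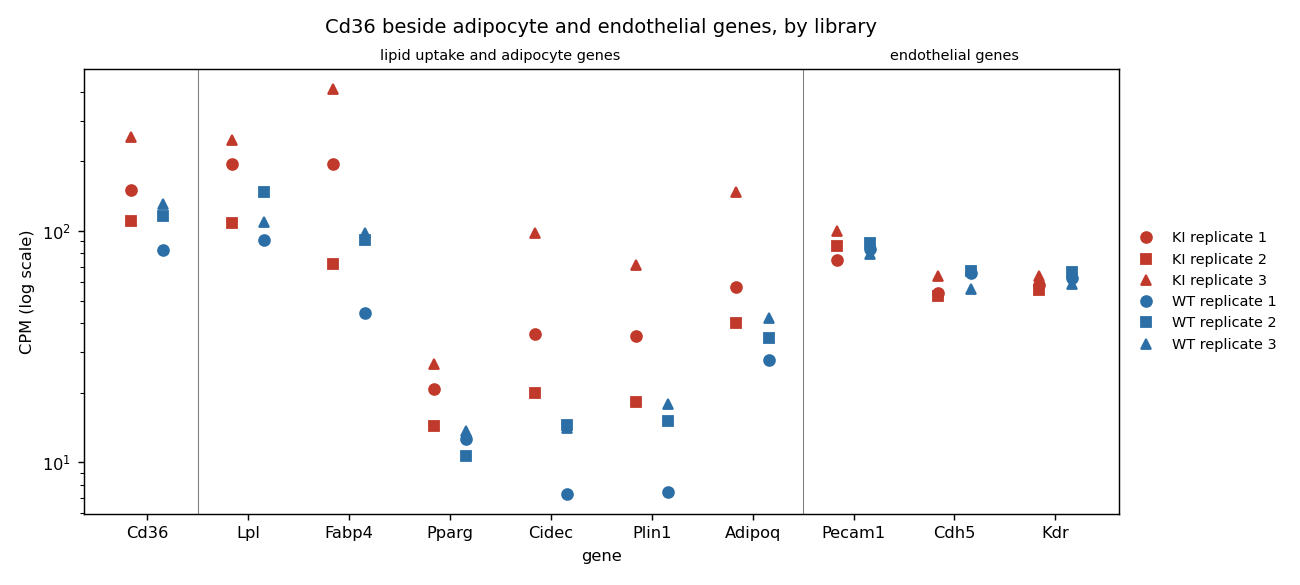
Level of Cd36, of 6 genes of lipid uptake and fat cells and of 3 endothelial genes in each library, in CPM on a log scale, with KI points left of WT points for each gene. KI replicate 3 is the highest library for Cd36 and for the 6 lipid genes, while the groups overlap for each endothelial gene (for Kdr, 55.8 to 63.7 CPM in KI and 58.9 to 66.7 CPM in WT).

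Per kilobase of annotated exons, the levels of the 10 genes spread widely. Cd36 led with a mean over the 6 libraries of 39.2 CPM per kb (range 22.9 to 71.2), and its range did not meet that of Gnai1, the next, at 9.77 CPM per kb (range 8.41 to 11.5). The ranges of Gnai1 and Sema3d (7.53 CPM per kb) overlapped, as did those of Sema3d and Cacna2d1 (5.39 CPM per kb). Sema3c followed at 3.68 and Sema3e at 2.41 CPM per kb, each apart from its neighbours in the order except that Sema3e overlapped Magi2 (1.94 CPM per kb). Sema3a (0.969) and Pclo (0.939 CPM per kb) overlapped, and Gnat3 was last at 0.102 CPM per kb, below all others. Exon lengths are from GENCODE release M21 and count every annotated isoform, so a long rare isoform lowers a gene's value.

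Among the WT libraries, replicate 1 was low and replicate 2 high for most of the set. Of the 3 WT libraries, replicate 1 was the lowest for 8 of the 9 tested genes, beside 33.9% of all genes tested. Replicate 2 was the highest of the 3 for 7 of the 9, beside 34.9%. Of all 6 libraries, WT replicate 1 was the lowest for 5 of the 9, beside 18.7%. WT replicate 2 was the highest of the 6 for 6 of the 9, beside 15.5%. WT replicate 1 was the lowest and WT replicate 2 the highest of all 6 for 3 of the 9, beside 3.55%. The SD relative to the mean was larger in WT than in KI for 7 of the 9, beside 47.7% of all genes tested. The exceptions were Cd36, at 43.6% in KI and 22.6% in WT, and Pclo, at 21.3% in KI and 15.7% in WT. For Sema3c it was 1.65% in KI and 17.4% in WT, and for Sema3d 3.08% in KI and 16.9% in WT. WT replicate 2 and KI replicate 3 were the libraries with abundant Xist. No neighbour passed with Xist as a covariate, as none did without it, and the part of Xist in these library orders was not tested.

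As a description over the 6 libraries, which share their scaling, 31 of the 36 pairs of tested neighbours had a positive Pearson correlation of log2 CPM, with a median of 0.554. The highest was 0.9 between Sema3c and Sema3d, which lie on opposite sides of Hgf, then 0.837 between Cacna2d1 and Sema3e and 0.823 between Sema3c and Magi2. The lowest was -0.26 between Cacna2d1 and Cd36. With Hgf, the values of the 9 ran between -0.642 for Sema3a and 0.39 for Sema3e. Pairs drawn from other genes were not summarised in this way, so the share of positive pairs is not shown to be particular to this set.

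**Figure D3:**
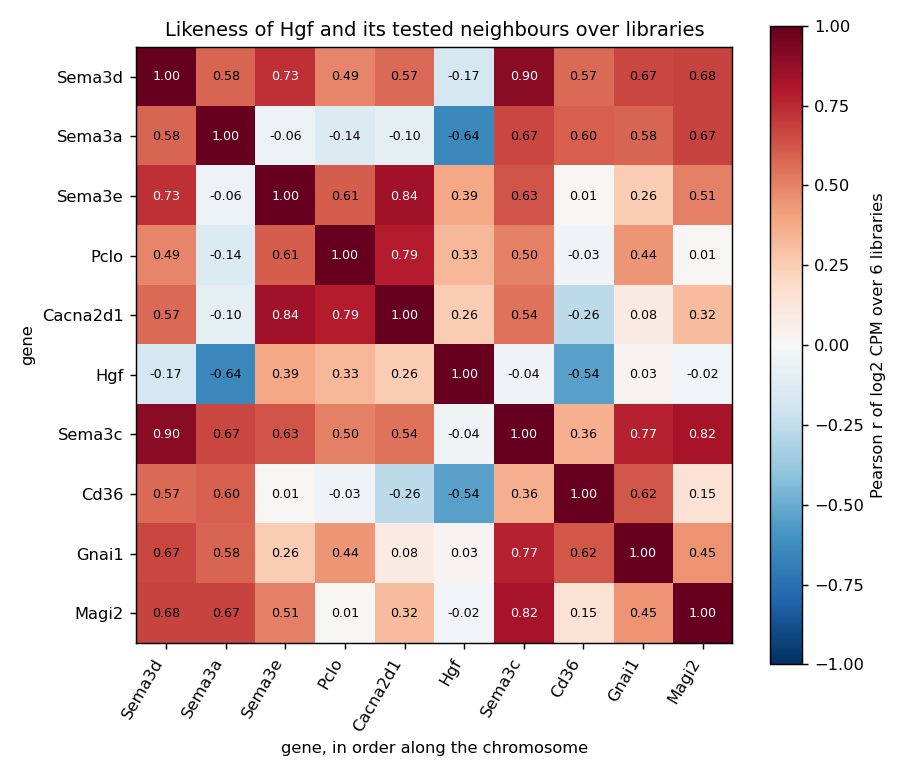
Pearson correlation of log2 CPM over the 6 libraries for each pair among Hgf and its 9 tested neighbours, ordered along the chromosome, as a colour from -1 to 1 with the value in each square. The values of Hgf with its neighbours lie between -0.642 for Sema3a and 0.39 for Sema3e, while Sema3c and Sema3d reach 0.9.

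Named protein-coding genes with a mean of at least 1 CPM were searched on all chromosomes. The genes whose levels were most like those of each neighbour over the 6 libraries are given below. For Cacna2d1 they were Otud7a (r = 0.989) and Cacna1b (0.987), which encodes the pore of an N-type calcium channel. For Sema3c they were Rora (0.996) and Matn2 (0.989), for Sema3d Mturn (0.996) and Ctnna3 (0.992), for Sema3a Ror1 (0.996) and Tef (0.992), and for Sema3e Ndfip1 (0.99) and Vwa5a (0.989). For Cd36 they were Bnip3 (0.994), a mitochondrial protein gene, and Hadhb (0.991), a subunit of the enzyme that breaks down fatty acids in mitochondria. Hadhb is on chromosome 5, as Cd36 is. For Gnai1 they were Rab15 (0.994) and Lrp12 (0.992), for Magi2 Aff4 (0.996) and Ttc8 (0.984), and for Pclo the mitochondrial mt-Cytb (0.993) and Pfn2 (0.987). With 6 libraries such values are common: between 75 genes (Sema3e) and 243 genes (Cd36) had r above 0.9.

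No gene of the wider region passed. Within 5 Mb of Hgf, 136 other genes had a row and 33 were tested. Of these, 19 were higher and 14 lower in KI by the sign of the log2 fold change alone, whose median was 0.02. None passed in edgeR (0.0338% of all genes tested passed), and 1 of 33, Cd36, had an unadjusted p under 0.05 (4.5% of all genes tested). DESeq2, limma-voom and the fit with no filter called none there either. Within 1 Mb, 6 of 30 were tested, with a median of -0.05. Of the 20 protein-coding genes tested within 5 Mb, the intervals of 17 lay above the change of Hgf. Beyond the 10 genes, the named coding genes there with the smallest p were Fam185a (log2 fold change 0.12), Phtf2, a gene of a putative transcription factor (-0.1), and Ptpn12, a tyrosine phosphatase gene (-0.07), with edgeR adjusted p of 0.972, 0.975 and 0.976.

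**Figure D4:**
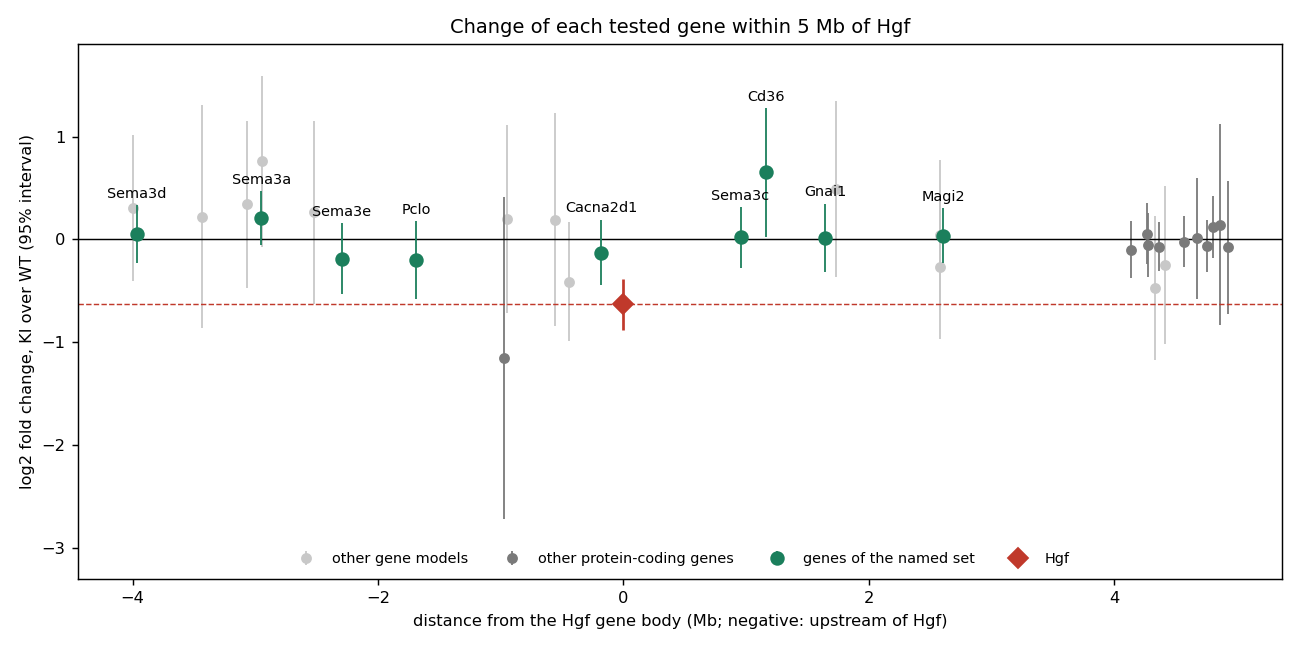
Log2 fold change of KI over WT with its 95% interval for each tested gene within 5 Mb of Hgf, against distance from the Hgf gene body in Mb, negative upstream; green marks the named neighbours, grey other genes, and the dashed line the change of Hgf. The 9 green intervals all lie above the dashed line at -0.63, and those of all but Cd36 cross 0.

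The partners of the semaphorins did not pass either. Of the other class 3 semaphorin genes, Sema3b was at 28.9 ± 3.7 CPM in KI and 33.1 ± 7.66 CPM in WT, and Sema3g at 9.01 ± 1.21 CPM in KI and 10.5 ± 1.74 CPM in WT (SD, n = 3 each), with log2 fold changes of -0.2 and -0.22. None of the 10 genes of receptors and co-receptors passed, with 5 positive and 5 negative log2 fold changes (median -0.02). The adhesion molecule genes Chl1 and L1cam, which act as co-receptors, were at -0.35 (SE 0.236) and -0.34 (SE 0.242). The next 3 receptor genes were chosen for their roles after their values were seen. Nrp1, the neuropilin that binds Sema3a, was at 131.5 ± 19.6 CPM in KI and 119.3 ± 9.77 CPM in WT. Nrp2 was at 188.5 ± 25.8 CPM in KI and 204 ± 19.8 CPM in WT, and Plxnd1 at 117.6 ± 2.21 CPM in KI and 117.5 ± 16.8 CPM in WT (SD, n = 3 each).

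Genes that carry the semaphorin signal inside the cell had a median of 0.01 over 12 with none passing. Farp2, an exchange factor bound by plexin A, was at 28.5, 30.8 and 32.3 CPM in KI and at 25.6, 27.2 and 22.5 CPM in WT libraries. Every KI library was above every WT library, as for 4.71% of all genes tested. The log2 fold change of Farp2, 0.28 (SE 0.112), did not pass (edgeR adjusted p = 0.966). Mical2, an actin-oxidizing enzyme gene, was at 0.25 (SE 0.184).

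Relatives of the other neighbours did not pass. Among 15 other calcium channel subunit genes the median was -0.0016 and none passed. Cacna1e, an R-type pore gene, was at 0.28 (SE 0.124) and Cacnb1, the beta subunit of skeletal muscle, at -0.35 (SE 0.152), with an edgeR adjusted p of 0.966 for each. The presynaptic active zone list had a median of -0.08 over 9, with Ppfia3 at -0.44 (SE 0.257) and Unc13b, a vesicle priming gene, at 0.15 (SE 0.094). The MAGI and tight junction scaffold list had -0.03 over 5, with Tjp1 at -0.06. The list of other inhibitory and transducin G alpha genes had -0.14 over 5 tested of 6, where Gnai2 was at 192 ± 5.12 CPM in KI and 211 ± 22.1 CPM in WT and Gnaz at 20.6 ± 0.774 CPM in KI and 22.9 ± 2.01 CPM in WT (SD, n = 3 each). Every KI library was below every WT library for Gnai2, by less than 1 CPM at the closest. The groups were apart in this direction for 4.01% of all genes tested, and neither Gnai2 nor Gnaz passed. Of 9 taste transduction genes, partners of Gnat3 in taste cells, 6 were tested with a median of 0.0046. Trpm5, the cation channel of that pathway, was at 1.43 ± 0.363 CPM in KI and 1.06 ± 0.16 CPM in WT, and Gnb3, a G beta subunit, at 0.454 ± 0.103 CPM in KI and 0.801 ± 0.213 CPM in WT (SD, n = 3 each), and neither passed.

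Markers of further cell types that a dissected cochlea can hold had the following levels. Neuron markers had a median of -0.29 over 10, with Nefh at -0.42 (SE 0.197) and Tubb3 at -0.42 (SE 0.207), and summed to 771, 557 and 774 CPM in KI and to 660, 965 and 936 CPM in WT libraries. KI replicate 2 was the lowest library for this sum, as it was for Pclo, and the part of neurons in the values of Pclo was not tested. Hair cell markers had a median of 0.03 over 9, 6 positive and 3 negative, with Strc at 0.45 (edgeR adjusted p = 0.966) and Pou4f3 at -0.31 (edgeR adjusted p = 0.966), and Schwann cell markers -0.23 over 8, with Egr2 at -0.78 and Prx at -0.54. None of these passed. Cartilage markers had a median of 1.37 over 6, with Col10a1 at 3.71 and Matn3 at 3.81, bone markers 0.12 over 6, and erythroid markers -0.21 over 6, with Slc4a1 at -0.3 and Ermap at -0.25, and none passed. Without KI replicate 1, 3 of the 6 cartilage markers passed. In 1 of the 20 lists, which were chosen with earlier results of these data known, any gene passed. There 4 of 9 pigment and intermediate cell markers fell and 0 rose, beside 0.0241% lower and 0.00965% higher of all genes tested. Their log2 fold changes were -2.25 for Dct, -2.69 for Slc45a2, -2.32 for Tyr and -2.08 for Mlana, all genes of pigment synthesis or pigment granules. Without KI replicate 3, WT replicate 2 or WT replicate 3, 2 of the 9 passed, and no other fit without 1 library gave fewer than 3.

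Leaving out 1 library moved the neighbours by more than it moved Hgf. The log2 fold change of Hgf stayed between -0.67 and -0.57 over the 6 such fits, and that of Cd36 ran between 0.25 and 0.89. Those of Cacna2d1, Pclo, Sema3e, Sema3a and Cd36 kept their sign in all 6. Those of Sema3c, Sema3d, Gnai1 and Magi2, the 4 nearest to 0 with all libraries, changed sign in at least 1. No neighbour passed in any of these fits, where the lowest edgeR adjusted p was 0.53 (Pclo, without KI replicate 1).

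**Figure D5:**
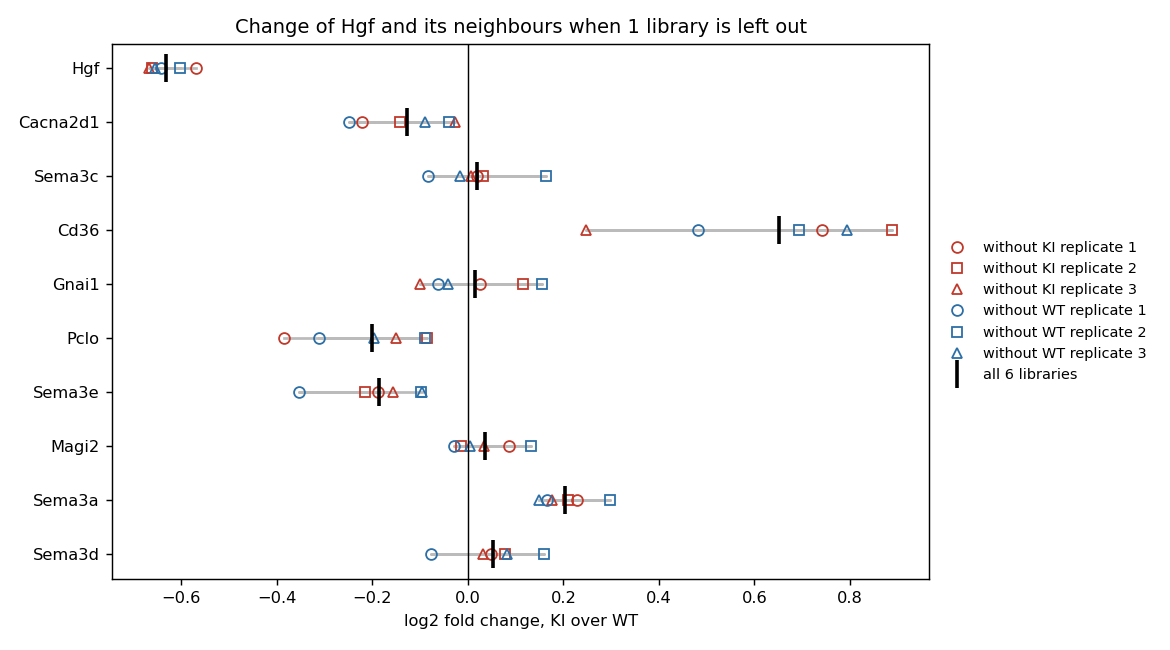
Log2 fold change of KI over WT for Hgf and its 9 tested neighbours with all 6 libraries (black bar) and with each library left out in turn (open symbols). Hgf stays between -0.67 and -0.57, Cd36 moves to 0.25 without KI replicate 3, and the marks of Sema3c, Gnai1, Magi2 and Sema3d lie on both sides of 0.

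Reads shared with other annotated genes could touch few of these values. Of all 93-base windows in the annotated transcripts, 5.39% of those of Hgf, 2.87% of Pclo, 0.944% of Magi2 and 0.5% of Sema3a were also in a transcript of another gene model on either strand, and none of those of the other 7 genes. The model overlapping Hgf, Gm43489, had 5, 3 and 1 counts in KI and 5, 6 and 12 counts in WT libraries, beside 306, 306 and 243 counts of Hgf in KI and 383, 483 and 635 in WT libraries.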

How the data were processed

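Total RNA of cochleae, freed of ribosomal RNA, was copied with random primers and both fragment ends were read over 93 bases, per the labels' protocols. The authors' mapping used STAR 2.5.2 on GRCm38 (GENCODE M11) and their test DESeq2, per the labels; the STAR version is from the submitters' processing notes. No source used here gives the counting program or its strand setting. The authors deposited unnormalized read counts per gene. Their deposited result table holds a mean signal (size-factor scaled counts), the log2 fold change and its error, a test score, and p-values. Of the count rows, 48709 are mouse genes, and the other 24 (spike-ins and transgenes, 0.00151% to 0.0045% of a library) entered neither library sizes nor tests. GENCODE M21, on the same build, gave symbols and coordinates by identifier for 48349.

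The test was the two-sided quasi-likelihood F test of edgeR 4.0.16 (R 4.3.3, default settings, filterByExpr, TMM), with group alone in the model, and Benjamini-Hochberg adjustment ran over 20733 genes with a threshold of 0.05. Errors of fold changes were derived from F, and 95% intervals, unadjusted for the number of genes, from the fit's degrees of freedom. CPM use TMM-scaled totals, except for Neo. Correlations used log2 CPM with a prior count of 2. Distance is the gap between gene bodies. The fit was checked on simulated counts with known changes. Alternatives were RLE and upper-quartile factors, no filter, a floor of 1 CPM in 3 libraries, limma-voom (limma 3.58.1), DESeq2 1.42.0, a bias-adjusted quasi-likelihood, an Xist covariate, a threshold of 0.1, start-site distance, a prior count of 0.5, and each library left out; leaving out libraries for the gene lists was added after seeing the data.

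The 10 genes and the 20 gene lists were chosen with earlier results of these data known. Besides Hgf and the 10 genes, named genes were list genes past the threshold, up to 2 per list with the smallest p, the 3 other named coding genes within 5 Mb with the smallest p, and the 2 genes most like each neighbour. Gm43489 and, in the Cd36 plot, Plin1, Adipoq, Pecam1 and Kdr were chosen after their values were seen. 1 gene that this rule names is not reported here. Replicate numbers follow accession order and pair nothing.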

Additional observations from a re-analysis of the deposited data

Results flagged for a closer look

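The Neo cassette, whose row stayed out of the comparisons, was above the counting interval of every WT library in 2 KI libraries. It was at 2.06 CPM in KI replicate 1 and 6.99 CPM in KI replicate 2, and at 0.208 CPM in KI replicate 3, against 0.207, 0.275 and 0.236 CPM in the WT libraries (on unscaled library totals; the intervals cover counting error only). In KI replicate 1 the exact 95% interval was 1.61 to 2.6 CPM and in KI replicate 2 it was 6.06 to 8.04 CPM, while the highest upper bound of a WT library was 0.543 CPM. The cassette is named in the genotype of all 3 KI mice.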

How the results depend on the processing

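No neighbour of Hgf was called, in the set of 10 or within 5 Mb, under any alternative run. Over 135 values of the 9 tested neighbours in 15 alternatives, the lowest adjusted p was 0.406 (Cd36, edgeR with no filter), and 127 kept their direction. The threshold of 0.1, counted among the 15, refits nothing and repeats the values of the main fit. The 8 that changed sign were all fits without 1 library, which gave -0.084 to 0.163 for Sema3c, -0.101 to 0.156 for Gnai1, -0.029 to 0.133 for Magi2 and -0.077 to 0.159 for Sema3d. The number of genes called over the whole table was 7 and became 76 with no filter, 28 in DESeq2, 11 with the Xist covariate and 3 to 21 without 1 library (21 without KI replicate 1, 4 without WT replicate 1, and 3 without KI replicate 3 or WT replicate 2); the cause was not tested. Hgf was called with no filter (edgeR adjusted p = 0.038) and in DESeq2 (adjusted p = 0.014). The order by distance was the same between start sites, and the 2 most similar genes were the same for all 9 with a prior count of 0.5. No paired analysis was possible because the labels give the mice no shared replicate numbers. With 3 mice per group, the intervals of the neighbours reached down to -0.58 (Pclo) and up to 1.28 (Cd36), and Gnat3 was limited by depth.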

Other observations

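2 unnamed gene models near Hgf, chosen after their values were seen, had larger differences than most of its neighbours, at low levels. Gm43719, 2.95 Mb upstream, was at 0.634, 0.58 and 0.693 CPM in KI and at 0.201, 0.572 and 0.334 CPM in WT libraries. It was the 1 gene of the 33 tested within 5 Mb whose groups did not overlap, beside 8.72% of all genes tested (log2 fold change 0.76, SE 0.372, edgeR adjusted p = 0.966). Gm21083, 0.971 Mb upstream, was at 0.362, 0.171 and 0.043 CPM in KI and at 0.121, 0.841 and 0.406 CPM in WT libraries (log2 fold change -1.15, SE 0.697, edgeR adjusted p = 0.966). Whether it shares reads with similar gene models was not tested.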
